A study of Homo sapiens with 6 samples.

Results

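A set of 10 genes of iron handling and of the defence against lipid peroxides was followed in H9 cells after treatment with PA4, a compound known here only by its code name. The 10 genes were fixed by name: the ferritin subunits FTH1 and FTL, the ferritin cargo receptor NCOA4, the importers TFRC and SLC11A2, the heme exporter FLVCR1, the iron regulatory proteins IREB2 and ACO1, and the ferroptosis guards GPX4 and AIFM2. Each of the 10 matched 1 of the 26485 gene symbols in the count table, and each was among the 12107 genes with enough reads to be tested. H9 is an established human T lymphoma line, labelled as cutaneous. Polyadenylated RNA was sequenced from 3 libraries of cells given 1 µM PA4 for 24 h and 3 libraries of control cells, which the treatment protocol describes as given DMSO. Both groups were grown in RPMI medium with fetal bovine serum and antibiotics, and all libraries come from this 1 cell line. The comparison asks what changes in messages under a compound whose submitters tie it to cell death. Library totals were 18282212 to 22875191 counts with PA4 and 19033853 to 19260434 counts in control.

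As background, cells take up iron bound to transferrin through the transferrin receptor, release it from endosomes through SLC11A2 and store the surplus inside ferritin, a shell of heavy and light chains. The proteins encoded by ACO1 and IREB2 sense iron. When iron is scarce they bind a hairpin, the iron-responsive element, which blocks translation of ferritin messages when it lies before the coding region and stabilises the transferrin receptor message when it lies behind it. Loose iron promotes the oxidation of membrane lipids. Ferroptosis is the death that follows when the lipid peroxidase GPX4 and the ubiquinone reductase encoded by AIFM2 (also called FSP1) cannot hold these peroxides down.

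The hairpins are shown because they tie the regulators in this set to their targets in it. The core was searched for as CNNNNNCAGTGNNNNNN on the sense strand of the basic coding transcripts of GENCODE release 29. The base after CAGTG could not be G, and the 5 bases on each side of the loop had to pair with each other, G with T allowed. The 30-base windows below run 5′ to 3′ on the minus strand of GRCh38 for FTH1 and TFRC and on the plus strand for FTL, and the capitals mark the bulged C and the CAGTG of the loop.
FTH1, 5′ UTR, chr11:61967574-61967603: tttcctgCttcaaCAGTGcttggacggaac
FTL, 5′ UTR, chr19:48965334-48965363: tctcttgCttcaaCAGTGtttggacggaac
TFRC, 3′ UTR, chr3:196050979-196051008: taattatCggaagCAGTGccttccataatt
TFRC, 3′ UTR, chr3:196050575-196050604: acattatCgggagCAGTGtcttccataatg
TFRC, 3′ UTR, chr3:196050510-196050539: tctgtatCggagaCAGTGatctccatatgt
TFRC, 3′ UTR, chr3:196050463-196050492: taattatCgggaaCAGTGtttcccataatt
Among the 10 genes these 6 windows were the matches. SLC11A2 is also known to carry such a hairpin in some of its messages. No core that met these pairing rules was found in its transcripts searched. A hairpin with an unpaired or extra base in its stem would have been missed, so this says nothing about its presence or binding. The match was present in 5 of 6 basic coding transcripts of FTH1, in the 1 of FTL and in each of the 3 of TFRC. Of 18554 coding genes searched, 22 (0.119%) held a match in the 5′ UTR and 97 (0.523%) in the 3′ UTR, so the motif is uncommon but not particular to iron genes.

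GPX4 is a selenoprotein, in which a stop codon is read as selenocysteine. That codon lies at chr19:1105403-1105405 on the plus strand of GRCh38, in capitals here with the coding bases around it.
GPX4, coding region: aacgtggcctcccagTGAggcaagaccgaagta

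Expression of 9 of the 10 genes was close between the groups, while AIFM2 had too few reads to tell. None of the 10 passed the test for a difference between PA4 and control at an adjusted p under 0.05 in edgeR's quasi-likelihood test, where 0.231% of all 12107 tested genes passed, 0.215% higher and 0.0165% lower with PA4. At an unadjusted p under 0.05 there were 3 of 10, FTH1 and FLVCR1 with higher and AIFM2 with lower values under PA4, against 5.29% of all tested genes, 2.69% higher and 2.6% lower. DESeq2 called 1, FTH1, against 0.289% of all genes, and limma-voom called 0 of the 10, against 0.223% of all genes. The median log2 fold change of the 10 was 0.034, beside -0.0040 for all tested genes, with 7 positive and 3 negative values. The 95% interval excluded a change of 1.5-fold in either direction for 9 of the 10, AIFM2 being the exception, and for 87.1% of all tested genes. It excluded a change of 1.1-fold for 5 of the 10, FTL, NCOA4, TFRC, IREB2 and GPX4, and for 24.4% of all tested genes. Separate cultures are not stated in the labels, so the p-values speak for the spread of these 6 libraries, possibly a technical one. In RNA from whole cultures, fewer cells of a kind and less RNA per cell cannot be told apart.

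**Figure D1:**
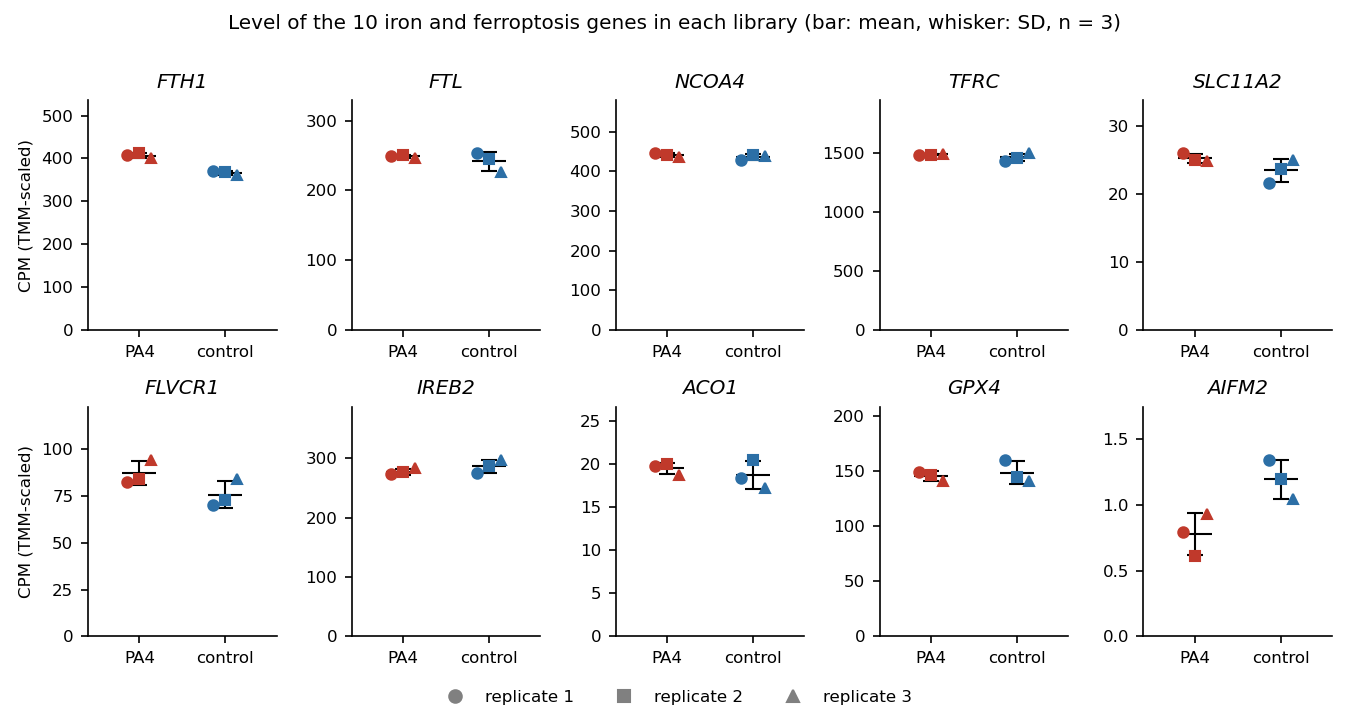
Level of each of the 10 genes in CPM, the count scaled to TMM-adjusted library size, in the 3 PA4 libraries (red) and the 3 control libraries (blue), with group means as bars and SD as whiskers; each vertical axis starts at 0. FTH1 lies higher in each PA4 library than in any control library, AIFM2 lies lower in each, and the groups overlap for the other 8 genes.

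Of the 10 genes, FTH1 had the lowest p, while the other storage genes, FTL and NCOA4, did not differ beyond the spread of the libraries. FTH1 (chr11:61964285-61967634, minus strand of GRCh38), the heavy chain that oxidises iron as it enters the shell, stood at 408, 412 and 401 CPM in PA4 replicates 1 to 3, against 371, 368 and 361 CPM in control replicates 1 to 3. CPM are counts scaled to TMM-adjusted library size. Every PA4 library was above every control library, a pattern shared by 5.91% of all tested genes. The gap was small and even: means were 407 ± 5.44 CPM with PA4 and 366 ± 5.21 CPM in control (SD, n = 3 each), or 1.11-fold (95% interval 1.06 to 1.16). The log2 fold change was 0.15 ± 0.03 (SE), with an edgeR adjusted p of 0.0649. By p-value FTH1 was the 29th of the tested genes, next after the 28 that passed. In 17 alternative settings its log2 fold change kept its sign and ranged from 0.14 to 0.16, while its adjusted p ranged from 0.000107 to 0.607 and passed in 6. These were DESeq2 (0.0145), no low-count filter (0.00606), the replicate number as a block (0.0087), offsets for GC content (0.000107), block and offsets together (0.000111), and the fit without control replicate 1 (0.00851). Over all genes, 0.359% passed without the filter, 0.487% with the block, 1.07% with the offsets and 1.22% with both.

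Reads can be misplaced between FTH1 and its copies. GENCODE release 29 lists 25 pseudogenes of FTH1, of which FTH1P3 and FTH1P18 were in the count table, with 5 to 14 and 0 counts per library. BEST1, on the other strand, shares 62.4% of the exon bases that GENCODE annotates for FTH1. BEST1 had 0 to 3 counts per library, and whether counting used strand is not stated in the labels.

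FTL (chr19:48965309-48966879, plus strand), the light chain that helps the iron core to form, stood at 249, 251 and 247 CPM in the PA4 libraries, against 253, 246 and 226 CPM in the control libraries. The groups overlapped, and control replicate 3 was the low value. The log2 fold change was 0.043 ± 0.040 (SE) with an interval of -0.043 to 0.13. GENCODE lists 16 pseudogenes of FTL, and the 1 in the table, FTLP10, had 0 counts in every library. NCOA4 (chr10:46005088-46030623, minus strand), which carries ferritin to lysosomes for breakdown, was nearly level, at 445, 442 and 435 CPM with PA4, against 428, 442 and 439 CPM in control. Its log2 fold change was 0.015 ± 0.030 (SE), and its interval of -0.049 to 0.079 lay within 1.1-fold both ways.

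Per length, the heavy chain stood a little higher against its partners in PA4 libraries. The ratio of FTH1 to FTL in reads per kb of gene model was 1.16, 1.16 and 1.15 with PA4, against 1.04, 1.06 and 1.13 in control. The ratio of NCOA4 to FTH1 was 0.329, 0.323 and 0.327 with PA4, against 0.348, 0.361 and 0.367 in control. Neither ratio overlapped between the groups, and both contain FTH1.

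Iron uptake showed no difference beyond the spread of the libraries. TFRC (chr3:196049284-196082090, minus strand), the transferrin receptor, was the most abundant of the set in CPM, 35th of the tested genes, at 1490, 1490 and 1495 CPM with PA4, against 1434, 1463 and 1500 CPM in control. Control replicate 3 was above all PA4 libraries and the other control libraries were below them. The log2 fold change was 0.025 ± 0.026 (SE), with an interval of -0.030 to 0.081, again within 1.1-fold both ways. SLC11A2 (chr12:50952263-51028886, minus strand), the iron transporter of endosomes also called DMT1, stood at 25.99, 24.96 and 24.82 CPM with PA4, against 21.7, 23.71 and 25.04 CPM in control. These ranges overlapped through control replicate 3, and the log2 fold change was 0.11 ± 0.07 (SE), with an edgeR adjusted p of 0.988.

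Uptake and storage can be set against each other within a library. The ratio of TFRC to FTH1 was 0.848, 0.840 and 0.866 with PA4, against 0.899, 0.922 and 0.966 in control, without overlap. FTH1 alone did not overlap between the groups either, while TFRC alone did. The ratio of TFRC to FTL was 0.983, 0.978 and 0.997 with PA4, against 0.933, 0.980 and 1.09 in control, and there the groups overlapped. These ratios describe message levels. The hairpins of FTH1 and FTL act on translation, which was not measured.

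FLVCR1 (chr1:212858275-212899363, plus strand), which carries heme or choline across membranes, had the highest positive fold change of the set. It stood at 82.7, 84.0 and 94.4 CPM in PA4 replicates 1 to 3, against 70.3, 72.8 and 83.8 CPM in control replicates 1 to 3. Control replicate 3 was above PA4 replicate 1, so the groups overlapped, and replicate 3 was the highest library in both groups. PA4 was at 1.15-fold of control (95% interval 1.05 to 1.26), the log2 fold change 0.20 ± 0.06 (SE), and the edgeR adjusted p 0.611. Its log2 fold change stayed positive in 17 alternative settings, at 0.14 to 0.28, with adjusted p-values of 0.000827 to 1. Of these, 5 passed: no low-count filter (0.0243), the replicate block (0.0184), offsets for GC content (0.0159), block and offsets together (0.000827), and the fit without control replicate 3 (0.0122).

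**Figure D2:**
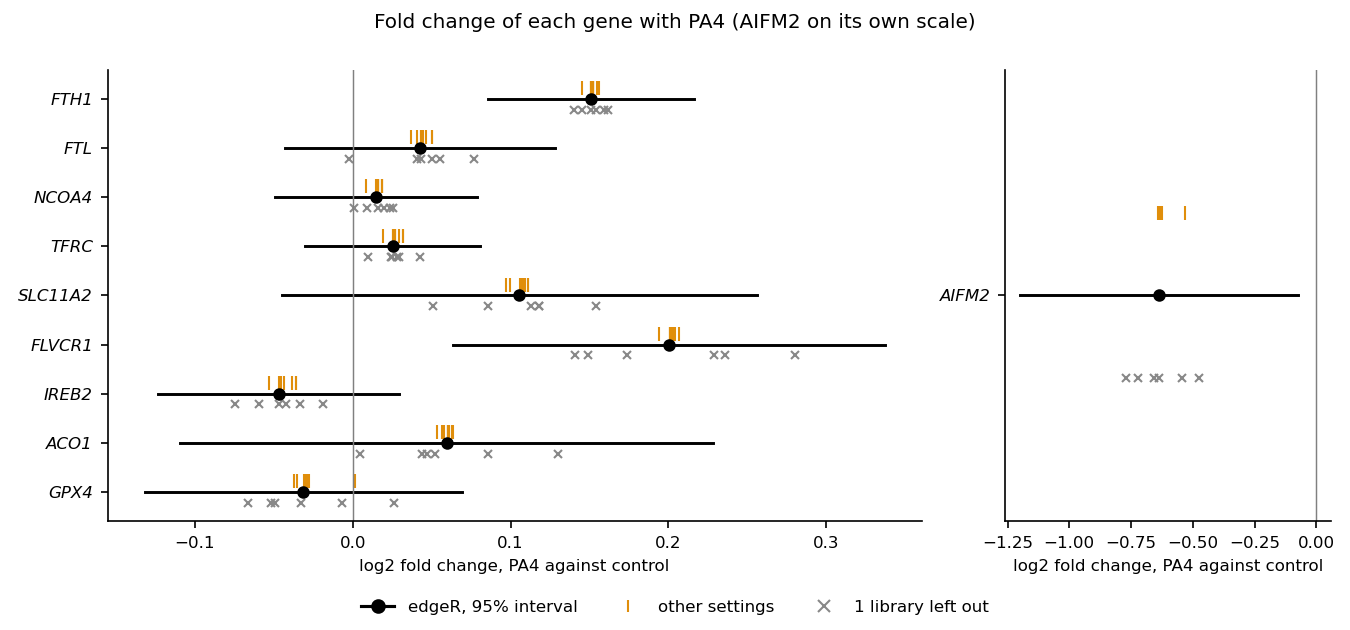
Log2 fold change of PA4 against control for each gene, with edgeR's estimate and 95% interval in black, the other settings as orange ticks and the fits that leave out 1 library as grey crosses; AIFM2 has its own axis. The intervals of FTH1, FLVCR1 and AIFM2 lie off 0, and those of FTL, NCOA4, TFRC, SLC11A2, IREB2, ACO1 and GPX4 span it.

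The iron regulators did not differ beyond the spread of the libraries. IREB2 (chr15:78437431-78501453, plus strand), the iron regulatory protein that is degraded when iron is plentiful, stood at 272, 277 and 283 CPM with PA4, against 275, 286 and 297 CPM in control. Its log2 fold change was -0.047 ± 0.036 (SE), with an interval of -0.12 to 0.029. ACO1 (chr9:32384643-32454769, plus strand), which is a cytosolic aconitase when it holds an iron-sulfur cluster and an RNA-binding regulator when it does not, stood at 19.8, 20 and 18.8 CPM with PA4, against 18.4, 20.5 and 17.3 CPM in control. Its log2 fold change was 0.059 ± 0.080 (SE), with an interval of -0.11 to 0.23. Both genes overlapped between the groups. Per length, IREB2 was above ACO1 by a factor of 7.84, 7.86 and 8.55 with PA4, against 8.49, 7.92 and 9.78 in control.

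Of the ferroptosis guards, GPX4 (chr19:1103994-1106779, plus strand), which reduces lipid peroxides with glutathione, stood at 150, 147 and 141 CPM with PA4, against 161, 145 and 142 CPM in control. The groups overlapped, and control replicate 1 was the highest library. The log2 fold change was -0.031 ± 0.047 (SE), with an interval of -0.13 to 0.069, and its sign turned with the GC correction, at 0.00051, and without control replicate 1, at 0.026.

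AIFM2 (chr10:70112271-70132825, minus strand) was barely expressed, so its difference rests on few reads. It had 16, 14 and 17 counts with PA4, against 26, 23 and 20 counts in control, or 0.792, 0.614 and 0.932 CPM with PA4, against 1.35, 1.20 and 1.05 CPM in control. Every PA4 library was below every control library, as in 5.31% of all tested genes. The summed counts were 47 with PA4, with an exact 95% Poisson interval of 34.5 to 62.5, and 69 in control, with an interval of 53.7 to 87.3, which cover counting error only. The log2 fold change was -0.64 ± 0.27 (SE), with an interval of -1.20 to -0.073 and an edgeR adjusted p of 0.891. It was negative in the 16 alternatives that tested it and passed in 0 of them, with adjusted p-values of 0.379 to 1. GPX4 messages outnumbered those of AIFM2 per length by 499, 631 and 399 to 1 with PA4, against 315, 319 and 356 to 1 in control.

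Levels of different genes were compared in RPKM, the CPM divided by the length of the gene model in kb. In all 6 libraries FTH1 was the highest, at 331 ± 4.43 RPKM with PA4 and 298 ± 4.24 in control (SD, n = 3 each). FTL and TFRC followed, at 260 to 291 and 271 to 283 over the 6 libraries, and did not differ beyond their spread. GPX4, at 114 to 131, was above NCOA4, at 105 to 109. Below them stood IREB2 at 42.8 to 46.7, FLVCR1 at 11.8 to 15.9, ACO1 at 4.77 to 5.67, SLC11A2 at 3.19 to 3.82 and AIFM2 at 0.189 to 0.414, with no overlap between neighbours. Among all tested genes per length, FTH1 ranked 157th, FTL 180th and TFRC 182nd. The order near the top depends on the gene model: with the exon lengths of GENCODE release 29, longer for FTH1, TFRC and GPX4 and nearly equal for FTL and NCOA4, FTL came first at 279, then FTH1 at 190, TFRC at 188, NCOA4 at 108 and GPX4 at 73.0.

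**Figure D3:**
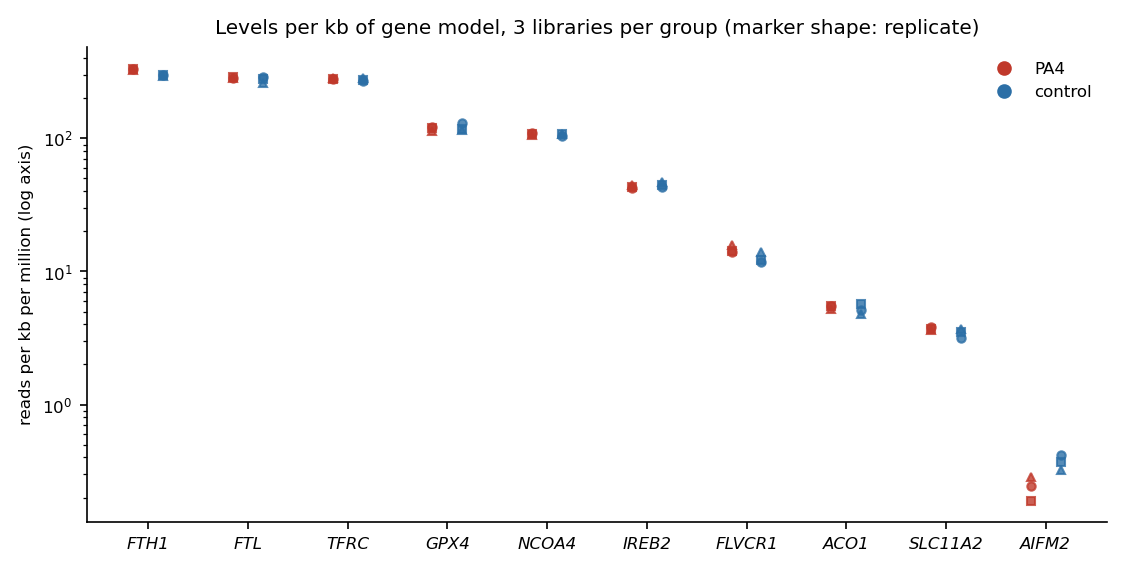
RPKM, reads per kb of gene model scaled to library size, in each library, on a log axis, for the 10 genes in order of their mean, with PA4 in red and control in blue. FTH1, FTL and TFRC sit together near the top, AIFM2 lies far below all others, and the PA4 and control points of a gene lie close together on this scale.

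The libraries differed in a way that tracks base composition. Over 11832 tested genes, a library's deviation from the gene mean was correlated with transcript GC content to differing degrees. Spearman rho was 0.595, -0.0966 and -0.514 in control replicates 1 to 3. In PA4 replicates 1 to 3 it was 0.0998, 0.225 and -0.315. These are correlations across genes, which are not independent replicates. GPX4, at 65.2% GC, and IREB2, at 38.3% GC, lay at the ends of the range of the set. Offsets for GC content narrowed the spread of the control libraries from 0.11 to 0.018 log2 for IREB2, from 0.16 to 0.074 for FTL and from 0.18 to 0.12 for GPX4, whereas for ACO1 it was 0.25 without and 0.26 with them. The offsets also turned the order of the control libraries for GPX4. Its control replicates 1 and 3 deviated by 0.125 and -0.0576 log2 without them, and by -0.0574 and 0.0677 log2 with them. For FTH1, at 50.1% GC, the control spread was 0.040 log2 without and 0.024 with the offsets. With them 2 of the 10 genes passed, FTH1 and FLVCR1, against 1.07% of all tested genes.

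**Figure D4:**
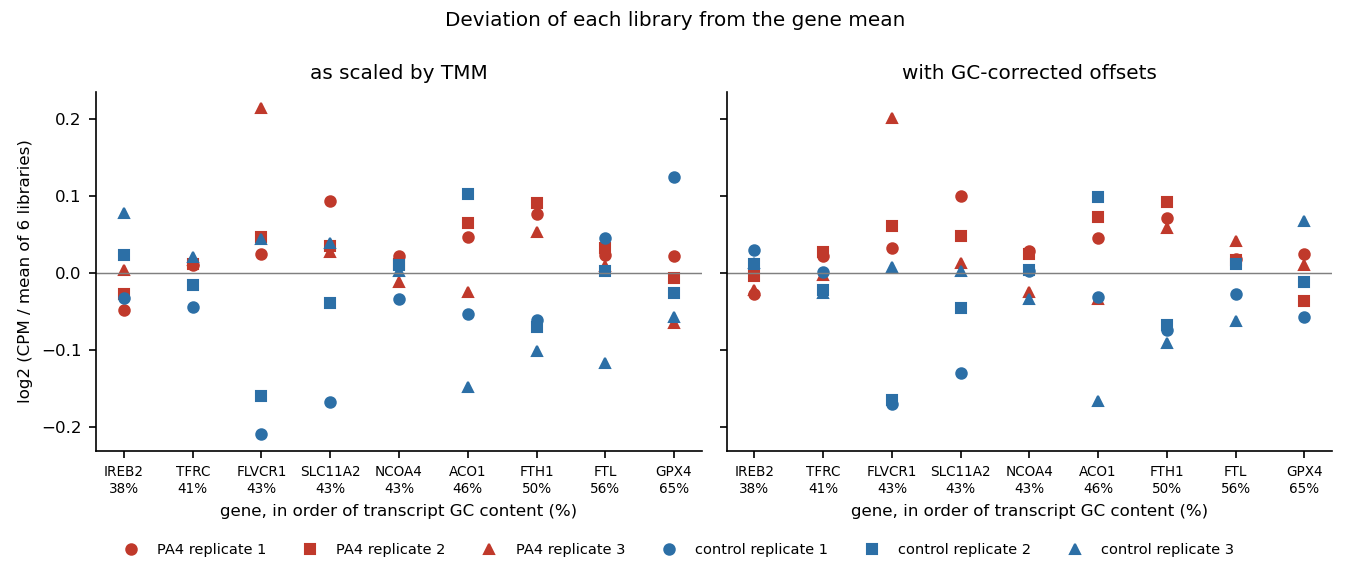
Deviation of each library from the gene's mean over 6 libraries (log2, vertical axis) for the 9 genes besides AIFM2, in order of transcript GC content, as scaled by TMM on the left and with offsets for GC content on the right. PA4 libraries are red and control libraries blue; FTH1 keeps a gap between the groups on both sides, and the control libraries of IREB2 and FTL draw closer together on the right.

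Around these 10 genes, 11 lists of the wider pathway held 163 further genes, of which 127 were tested. Of these, 3 passed in edgeR, in DESeq2 and in limma-voom alike, all higher with PA4, against 0.231% of all tested genes in edgeR. At an unadjusted p under 0.05 there were 8 higher and 3 lower, against 2.69% and 2.6% of all tested genes. Their median log2 fold change was 0.0046, beside -0.0040 for all tested genes. The 3 genes were SCD, DHCR7 and TXNRD1, from the list named ferroptosis guards, where 3 of 22 tested members rose, 0 fell and 19 did not pass. DHCR7 is known to act against that protection and is still counted in the 22. Without overlap between the groups, 8 of the 22 were higher, against 5.91% of all tested genes, and 1, AIFM2, lower, against 5.31%. The lists were chosen with earlier results of these data known, so these shares do not test whether the list stands apart.

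These 3 are linked to lipid peroxides by different routes. SCD makes monounsaturated fatty acids, which resist oxidation, and rose 1.26-fold, to 1714 ± 13.4 CPM with PA4, against 1360 ± 0.691 CPM in control (SD, n = 3 each). Its call held in each of 17 alternatives. DHCR7, of cholesterol synthesis, consumes a sterol known to trap radicals. It rose 1.32-fold, to 131 ± 2.00 CPM, against 99.2 ± 11.7 CPM in control (SD, n = 3 each). TXNRD1, a selenoprotein that reduces thioredoxin, rose 1.12-fold, to 576 ± 3.86 CPM, against 515 ± 13.3 CPM in control (SD, n = 3 each). Its edgeR adjusted p was 0.0328; fits without control replicate 2, or without PA4 replicate 1, 2 or 3, lost the call, in a range of 1.25e-05 to 0.376 over 17 alternatives. The call of DHCR7 was lost without control replicate 2, at 0.0844, in a range of 1.11e-15 to 0.0844. The cystine transporter gene SLC7A11 and GCLC, of glutathione synthesis, named after their values were seen, were at 0.37 ± 0.09 and 0.12 ± 0.04 log2 (SE), with edgeR adjusted p-values of 0.247 (0.00884 to 0.866 over 17 alternatives) and 0.749 (0.0402 to 1). With offsets for GC content these, and ACSL4 from the list of ferroptosis drivers, passed as well. SLC7A11 also passed with no low-count filter and with the replicate block.

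Lists of iron transport and use held no gene that passed in edgeR, DESeq2 or limma-voom, apart from FTH1 in DESeq2. Over all tested genes, 0.231% passed in edgeR and 5.29% had an unadjusted p under 0.05. In iron uptake and reduction 0 of 11 tested members passed and 0 had an unadjusted p under 0.05, with a median of 0.018 log2. Besides SLC11A2, its lowest p in the other direction was that of SNX3, a sorting protein that recycles the transferrin receptor, at -0.054 ± 0.039 log2 (SE). In storage and ferritin turnover it was 0 of 8, and FTH1 was the 1 at an unadjusted p under 0.05, while HERC2, a ligase that acts on NCOA4, was at -0.041 ± 0.054 log2 (SE). Among iron regulators and their controls it was 0 of 13, with a median of -0.0028 log2, and the members with the lowest p were CIAO1, of cytosolic iron-sulfur assembly, at 0.085 ± 0.042 log2 (SE), and CISD2, an iron-sulfur protein of the outer mitochondrial and reticulum membranes, at -0.11 ± 0.05 log2 (SE). In iron and heme export 0 of 5 passed, with FLVCR1 the 1 at an unadjusted p under 0.05.

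Heme synthesis and breakdown had 0 of 16 called, against 0.231% of all tested genes, with a median of -0.035 log2. Its lowest p was that of UROD, an enzyme of the heme pathway, at 11.8, 11.9 and 13.9 CPM with PA4, against 15.9, 15.1 and 13.5 CPM in control, or -0.25 ± 0.09 log2 (SE) with an edgeR adjusted p of 0.823 (0.206 to 1 over 17 alternatives). The groups overlapped there through PA4 replicate 3. ALAD, an earlier enzyme of the pathway, was at 0.050 ± 0.070 log2 (SE). Mitochondrial iron and iron-sulfur clusters had 0 of 21 called and a median of -0.019 log2. Without overlap between the groups, 4 of the 21 were lower, against 5.31% of all tested genes, and 0 higher, against 5.91%. At an unadjusted p under 0.05, 2 of the 21 were lower, against 2.6% of all tested genes. These were ABCB10, a mitochondrial transporter tied to heme synthesis, at -0.11 ± 0.04 log2 (SE), and BOLA3, at -0.14 ± 0.06 log2 (SE). BOLA3 was named after its values were seen. HSCB, a cluster assembly chaperone, had the lowest p among positive values, above 0.05 before adjustment, at 0.22 ± 0.12 log2 (SE). All 21 intervals excluded a change of 1.5-fold, as did those of 87.1% of all tested genes.

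Ferroptosis drivers had 0 of 18 called and a median of 0.024 log2. ACSL4, which loads membranes with oxidisable fatty acids, was at 0.10 ± 0.05 log2 (SE), and DPP4 was at -0.083 ± 0.044 log2 (SE). ACSL4 had the only unadjusted p under 0.05 in that list, against 5.29% of all tested genes. The machinery of selenoprotein synthesis, on which GPX4 depends, held 10 tested genes, of which 0 passed, also before adjustment, with a median of 0.014 log2. LRP8, a receptor for selenoprotein P, was at 0.091 ± 0.047 log2 and SEPHS1 at -0.038 ± 0.041 log2 (SE). Of 14 other selenoproteins TXNRD1 alone passed, against 0.231% of all tested genes, and the median was -0.024 log2. Of the 9 tested transcripts known to carry iron-responsive elements 0 passed, and their median was 0.043 log2, beside -0.0040 for all tested genes; 4 of the 9 belong to the set of 10. Of the others CDC14A had the lowest p among negative values, at -0.058 ± 0.080 log2 (SE).

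**Figure D5:**
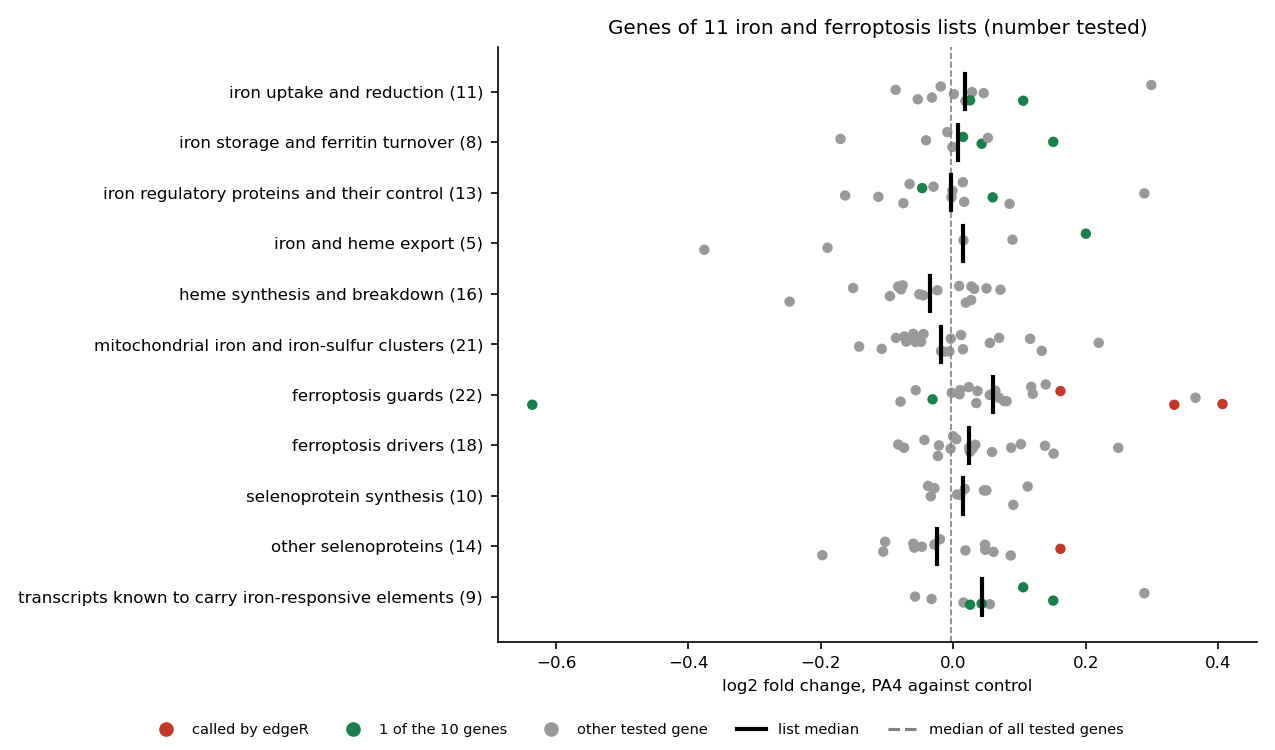
Log2 fold change of PA4 against control for each tested gene of the 11 lists, with the list median as a black bar and the median of all tested genes as a dashed line; vertical scatter within a list has no meaning. Red points passed edgeR's test and green points belong to the set of 10 genes. The 3 genes that passed lie in the list named ferroptosis guards, with TXNRD1 repeated among selenoproteins. DHCR7, though in that list, is known to act against such protection.

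Genes with the most similar profile over the 6 libraries were sought among 8563 others with a mean of 10 CPM or more, by the root mean square difference of log2(CPM + 0.5) after centring each gene. Nearest to FTH1 was ACLY, which makes cytosolic acetyl-CoA for lipid synthesis, at a distance of 0.0124 log2, followed by PON2 at 0.0137 and WDR55 at 0.0154. ACLY averaged 665 CPM with PA4 and 603 CPM in control, and its edgeR adjusted p was 0.0828, with 6.42e-05 to 0.687 over 17 alternatives. For PON2 and WDR55 the edgeR adjusted p was 0.749 and 0.876. Genes picked for a profile like that of FTH1 share its group difference by that choice. Nearest to TFRC were PAIP1, KIAA1279 and HNRNPC, at 0.00735 to 0.00831 log2, and nearest to GPX4 were PRMT1, CDC37 and CALM3, at 0.00993 to 0.0156 log2. The distances rest on 6 libraries, which share the depth and GC differences described above.

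Messages of T cells were present, as the label says: the 11 listed T cell markers were detected, with 20038 to 26128 summed counts per library with PA4 and 21293 to 22702 in control, CD5 the most abundant. Cell types that handle much iron left few reads. The 12 markers of macrophages and monocytes summed to 11 to 24 counts with PA4 and 14 to 30 in control, with CD163, CSF1R, MARCO, VSIG4, C1QB and C1QC at 0 in all libraries and CD68 the most abundant at up to 28. The 13 erythroid markers summed to 59 to 89 counts with PA4 and 61 to 67 in control, nearly all from EPOR, while the globin genes, ALAS2, AHSP and SLC4A1 were at 0. Hepatocyte markers summed to at most 2 counts, with TF the most abundant, and fibroblast markers to 12 to 28, most of them COL1A1. B cell markers summed to 720 to 974 counts with PA4 and 752 to 866 in control, led by BLK at 364 to 485. Of the markers of these 6 lists 0 passed in edgeR, DESeq2 or limma-voom, and 1, the T cell marker LAT, had an unadjusted p under 0.05 in edgeR.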

How the data were processed

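The deposited table holds raw counts of reads per gene symbol for 26485 genes in 6 libraries, not normalized, with the length of each gene model; per the submitters' processing notes the authors used Trimmomatic 0.39, fastp 0.23.2, STAR 2.7.9a and featureCounts of Subread 1.6.4 on hg38. Which annotation and strand setting were used, and how reads with several alignments were handled, is not given in the sources used here.

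The test was edgeR 4.0.16 in R 4.3.3 (filterByExpr, TMM, estimateDisp, glmQLFit, glmQLFTest, two-sided, no covariate), on 12107 genes, with Benjamini-Hochberg adjustment over all of them and a threshold of 0.05. All adjusted p-values are from this test unless another tool or setting is named. DESeq2 1.42.0 and limma 3.58.1 (voom) were alternatives, as were other scalings and filters, a replicate block, loess offsets for GC content, thinning and leaving out each library. SE comes from the F statistic. CPM are counts scaled to TMM-adjusted library size. GC content and exon lengths came from GENCODE release 29 and coordinates of genes from RefSeq, both on GRCh38. Of 185 list entries, 16 matched by an older symbol and 0 were unmatched.

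The genes, lists and tests were chosen with earlier results of these data known. Named genes are the 10 and, in each list, each gene that passed or else the lowest p in each direction with a mean CPM of 5 or more. Libraries of a group differed by more than sampling noise, so none was treated as a copy. The chi-square per degree of freedom was 1.48 to 2.11 between PA4 libraries and 2.77 to 6.81 between control libraries. Libraries with the same number had correlated deviations of 0.0249, -0.00843 and 0.126, so the numbers were not taken to pair them.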

Additional observations from a re-analysis of the deposited data

How the results depend on the processing

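Of the 10 genes, 0 passed in the reported test. DESeq2 gave 1, and no low-count filter, the replicate block, offsets for GC content and both together gave 2 each, FTH1 and FLVCR1 in each case. Leaving out 1 library gave 0 to 1, with FTH1 passing without control replicate 1 and FLVCR1 without control replicate 3. Over all genes, against 28 there were 62 with no low-count filter, 59 with the replicate block, 129 with offsets for GC content and 148 with both, and 17 to 74 when 1 library was left out. Omitting control replicate 1 gave the 74, omitting control replicate 2 the 17, and omitting PA4 replicate 1 gave 18. Of the pathway genes besides the 10, against 3 there were 4 with no low-count filter and 4 with the replicate block. SLC7A11 was the added gene in both. There were 6 with offsets for GC content and 6 with block and offsets. Leaving out 1 library gave 1 to 3, the 1 being SCD without control replicate 2. The causes of these shifts were not tested.

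The sign turned for GPX4 with offsets for GC content (0.000512 log2) and with block and offsets (0.00157 log2), and over fits that leave out 1 library, which ran from -0.0662 to 0.0263. For FTL those fits ran from -0.00231, without control replicate 3, to 0.0769. The other 8 genes kept their sign in every alternative that tested them. In 42 recomputations the 6 ratios between genes moved by less than 1 SD of the more variable group. The TFRC to FTL difference, -0.0186 log2, turned to 0.0451 without control replicate 3, and that of IREB2 to ACO1, -0.108, was -0.023 without it. The replicate block changed no call among the 10 besides FTH1 and FLVCR1. AIFM2 fell under the filter of a mean CPM of 1 or more and has no value there. AIFM2 had 14 to 26 counts per library, and its log2 fold change of -0.64 was -0.53 after thinning to equal depth and -0.474 without PA4 replicate 2.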
